A study of Mus musculus with 12 samples.

Results

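The interferon-stimulated genes examined here are 39 genes whose transcription is known to rise when cells sense interferon. The list was chosen by name, with earlier results of these data known. Its genes were found by Ensembl identifier among the 46078 genes of the count tables. All 39 passed the filter on low counts that left 15823 genes for testing, with between 29 reads (Mx2) and 9577 reads (Parp14) in a single library. The RNA came from epithelium scraped off the proximal ileum of male C57BL/6 mice and was sequenced in 4 groups of 3 biological replicates. These were gavaged with sesame oil vehicle or with TCDD at 3, 10 or 30 µg/kg. TCDD is 2,3,7,8-tetrachlorodibenzo-p-dioxin, a persistent dioxin and ligand of the aryl hydrocarbon receptor (AhR). Every group, vehicle included, was dosed at intervals of 4 days, 7 times over 28 days, from 28 to 56 days of age. The comparisons address how the genes follow the dose, from vehicle through 30 µg/kg.

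Type I interferons signal through the receptor pair IFNAR1 and IFNAR2, and type III interferons, the main interferons to which gut epithelium responds, through IFNLR1 and IL10RB. Both activate a complex that holds STAT2 and IRF9 and binds the interferon-stimulated response element (ISRE) in the promoters of antiviral genes. Type II interferon signals through IFNGR1 and IFNGR2 to the gamma-activated site (GAS), and in mouse cells drives the immunity-related GTPases and guanylate-binding proteins.

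Promoter sequence shows which of these elements lie near the start of the genes. Of the 39 genes, 28 matched a RefSeq promoter (build GRCm38.p6), and the 250 bases before each start were searched on both strands. The ISRE core, spelled as a pair of GAAA stretches parted by any 2 bases, was found in 16 of the 28 genes (57.1%), against 3.46% of 27025 genes searched in the same way. The GAS, spelled TTCNNNGAA, was found in 5 of 28 (17.9%), against 8.13% of all genes. The core of the dioxin response element to which AhR binds, GCGTG, was found in 6 of 28 (21.4%), against 30.9% of all genes. The E-box CACGTG, to which the circadian clock's CLOCK and BMAL1 bind, was in 0 of 28 (6.86% of all genes). These counts describe letters in a window and not bound sites. In Bst2 the ISRE and GAS matches overlap by position.

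The windows below are those of the genes on which the results turn, each read 5′ to 3′ on the strand of the gene, with the matched motif in capitals. Ifit1, Oas1g and Trim30a passed a test of dose, Oas1a is the near-identical neighbour of Oas1g, and Ifit1bl1 and Igtp were among the genes that varied with a circadian clock score within doses.
Ifit1, ISRE on the opposite strand, chr19:34640765-34640814: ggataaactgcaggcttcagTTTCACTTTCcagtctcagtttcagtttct
Oas1g, ISRE, chr5:120887614-120887651: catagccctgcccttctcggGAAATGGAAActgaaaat
Oas1a, ISRE, chr5:120907526-120907565: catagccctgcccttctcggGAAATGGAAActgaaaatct
Trim30a, ISRE on the opposite strand, chr7:104465200-104465249: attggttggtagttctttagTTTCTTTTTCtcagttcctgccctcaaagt
Ifit1bl1, ISRE on the opposite strand, chr19:34602043-34602092: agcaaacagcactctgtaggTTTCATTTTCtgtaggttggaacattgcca
Igtp, ISRE, chr11:58199502-58199551: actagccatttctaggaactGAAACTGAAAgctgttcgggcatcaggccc

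The promoter of Igtp also held a GAS, which ends just before its ISRE. Ifi44, the gene that fell furthest at 30 µg/kg, had no ISRE or GAS in the window searched and 1 match to the core of the dioxin response element.
Igtp, GAS, chr11:58199491-58199539: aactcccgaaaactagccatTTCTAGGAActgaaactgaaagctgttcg
Ifi44, core of the dioxin response element, chr3:151749961-151750005: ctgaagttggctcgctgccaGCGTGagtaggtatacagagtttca

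Libraries held between 11695887 (30 µg/kg replicate 2) and 22180274 (vehicle replicate 2) reads assigned to genes. Levels are CPM, reads relative to the library total after scaling by the trimmed mean of M-values (TMM), and levels of different genes are compared only as CPM per kb of exon. Cyp1a1, the classical AhR target, was between 18.9 and 27.5 CPM in vehicle and between 2605 and 3247 CPM at 30 µg/kg. Vil1, the brush border villin, lay between 3028 and 4473 CPM in every library. Fabp6, the ileal bile acid-binding protein, was between 22.9 and 38.3 CPM in the 3 libraries of 3 µg/kg and at most 0.306 CPM in the other 9, so this ileal marker was near 0 in 3 of the 4 groups. Slc10a2, the ileal bile acid transporter, was between 5.45 and 16.4 CPM at 3 µg/kg and at most 2.68 CPM elsewhere. Both genes are known to rise toward the distal ileum, so in each contrast with the 3 µg/kg group the dose and the stretch of ileum scraped cannot be told apart. Circadian clock genes also separated the libraries within each dose, and a clock score (mean log2 level of 8 genes that peak with Dbp minus that of 5 genes in antiphase) ran from -2.67 to 2.56 with no library near 0.

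In vehicle mice the interferon-stimulated genes spanned a wide range of levels. Ifi35, an interferon-induced leucine zipper protein, had the highest mean, 46.6 CPM per kb, followed by Ifit1bl1 at 42.7, Parp14 at 40.7 and Isg15 at 36.9 CPM per kb. At the other end, Ifit2, Iigp1 and Mx2 had vehicle means of 0.91, 1.01 and 1.73 CPM per kb. The vehicle means of Ifi35, Ifit1bl1, Parp14, Isg15 and Dtx3l lay within the spread between libraries of their neighbours, and these genes are therefore not ordered by these data.

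**Figure D1:**
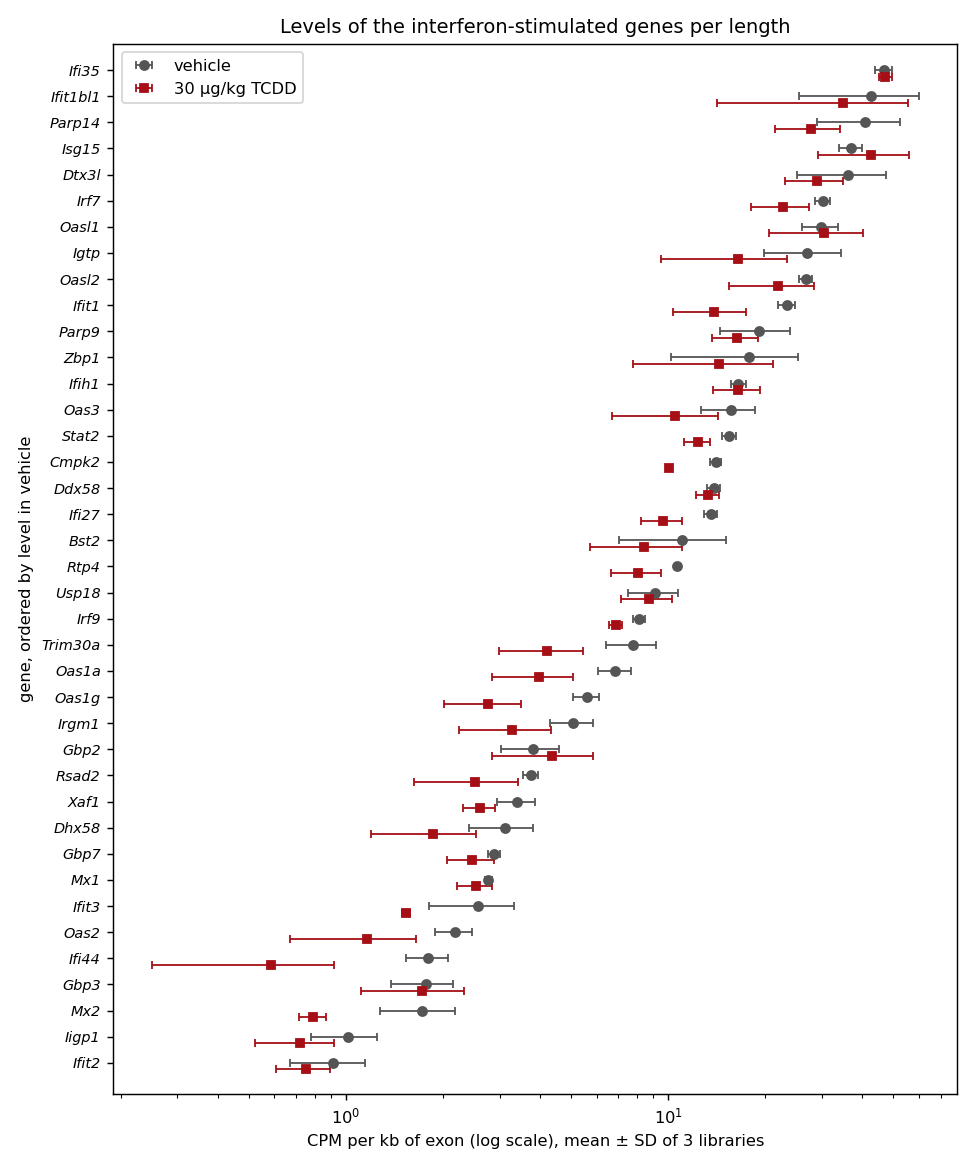
Mean level of each of the 39 genes in CPM per kb of exon (log axis) in vehicle (grey circles) and at 30 µg/kg TCDD (red squares), with bars of ± 1 SD over 3 libraries. Ifi35 (46.6 CPM per kb in vehicle) stands at the top and Ifit2 (0.91) at the bottom, and the red squares of Ifi44, Mx2, Oas1g and Ifit1 lie to the left of their grey circles.

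Across the list, the level at 30 µg/kg was lower than in vehicle for most genes, while 3 and 10 µg/kg gave no such shift. At 30 µg/kg, 35 of the 39 genes had a log2 change below 0 (52.2% of all genes tested), with a median of -0.38 against -0.02 over all genes. At 3 µg/kg, 15 of 39 were below 0 (49.7% of all genes), with a median of 0.09 against 0.00. At 10 µg/kg, 19 of 39 were below 0 (51.4% of all genes), with a median of 0.00 against -0.01. The contrasts with vehicle share its 3 libraries. RNA from a scraping is a mixture, so fewer cells of a type and less RNA per cell cannot be told apart.

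Few single genes passed the test. A gene was called where edgeR's quasi-likelihood test gave a Benjamini-Hochberg adjusted p under 0.05 and the change was at least 1.5-fold. At 30 µg/kg, 3 of the 39 were called lower (0.891% of all genes were) and 0 of 39 higher by edgeR or DESeq2 (3.08% of all genes by edgeR). Without the fold threshold, 5 of 39 were lower at an adjusted p under 0.05 (1.81% of all genes). At an unadjusted p under 0.05, 16 of the 39 were lower (10% of all genes) and 0 were higher (11.6%). At 3 µg/kg, 0 of 39 were called by edgeR, DESeq2 or limma-voom (0.228% of all genes by edgeR), with 6 higher and 1 lower at an unadjusted p under 0.05 (6.48% and 4.89% of all genes). At 10 µg/kg, 0 of 39 were called by any of these tools (0.613% of all genes by edgeR), with 1 higher and 5 lower at an unadjusted p under 0.05 (7.99% and 7.88%). The 3 calls at 30 µg/kg depended on single libraries: none of the 39 genes was called after leaving out vehicle replicate 2, vehicle replicate 3 or 30 µg/kg replicate 3, 1 without 30 µg/kg replicate 2 (Ifi27, a different gene), 5 without 3 µg/kg replicate 3 and 6 without 30 µg/kg replicate 1.

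**Figure D2:**
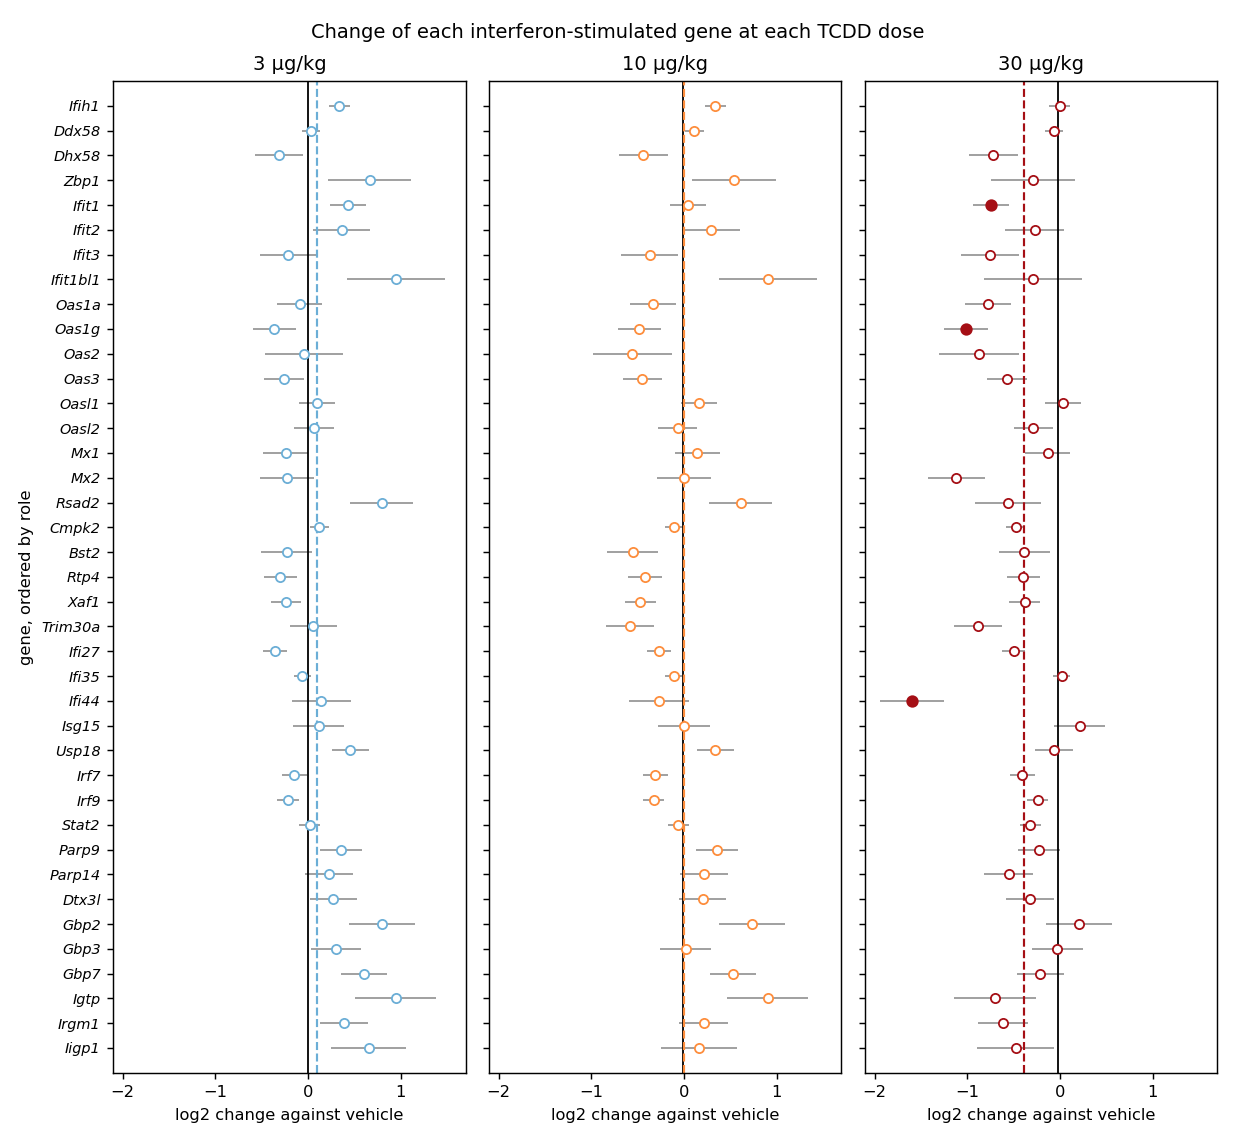
Log2 change against vehicle of each gene at 3, 10 and 30 µg/kg TCDD, with bars of ± 1 SE from the edgeR fit; filled circles mark calls, the black line the median of all genes and the dashed line the median of the 39. The dashed line sits at 0.09, 0.00 and -0.38 from left to right, and the 3 filled circles (Ifit1, Oas1g, Ifi44) are all at 30 µg/kg.

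Ifit1, which binds viral RNA lacking the host's cap methylation (GRCm38 chr19:34640871-34650009), stood at 58.2, 61.8 and 65.9 CPM in the vehicle libraries. It was at 68.7, 74.3 and 107 CPM at 3 µg/kg, 71.5, 57.3 and 62.8 CPM at 10 µg/kg, and 45.0, 26.5 and 39.2 CPM at 30 µg/kg. All 3 libraries at 30 µg/kg lay below every vehicle library, and all 3 at 3 µg/kg lay above. Ifit1 was 1.67-fold lower at 30 µg/kg than in vehicle (log2 change -0.74, SE 0.19, edgeR adjusted p = 0.0404). The difference at 3 µg/kg did not pass (log2 change 0.43, edgeR adjusted p = 0.418). Its adjusted p at 30 µg/kg was between 0.0226 and 0.119 when each library was left out in turn, with the change always below 0. Ifit1 kept its call in 4 of these 12 fits, and in 1 of the 6 that left out a vehicle or 30 µg/kg library.

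The other Ifit genes did not pass at 30 µg/kg. Ifit3 was between 2.99 and 5.46 CPM in vehicle and between 2.60 and 2.75 CPM at 30 µg/kg, without overlap (log2 change -0.75, edgeR adjusted p = 0.184). The groups overlapped for Ifit2 (log2 change -0.27, edgeR adjusted p = 0.672). Ifit1bl1 overlapped too (log2 change -0.29, adjusted p = 0.804) and spread widely within doses, from 68.2 to 141 CPM in vehicle and from 28.1 to 120 CPM at 30 µg/kg.

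Products of the classical genes of the oligoadenylate synthetase family sense double-stranded RNA and switch on RNase L. Of the 6 genes of this family, 5 had log2 changes below 0 at 30 µg/kg and 1 was called lower. Oas1g (GRCm38 chr5:120876142-120887613) was at 11.7, 13.9 and 13.7 CPM in vehicle, 7.24, 8.87 and 14.2 CPM at 3 µg/kg, 10.0, 9.20 and 8.87 CPM at 10 µg/kg and 8.31, 6.12 and 4.92 CPM at 30 µg/kg. The libraries at 10 and at 30 µg/kg all lay below vehicle, whereas those at 3 µg/kg overlapped it. Oas1g was 2.02-fold lower at 30 µg/kg (log2 change -1.01, SE 0.24, edgeR adjusted p = 0.0258), and also fell over dose rank (log2 change over the whole range -0.94, adjusted p = 0.0258). Its adjusted p at 30 µg/kg was between 0.0081 and 0.106 with each library left out. Oas1g kept its call in 8 of these 12 fits, and in 2 of the 6 that left out a vehicle or 30 µg/kg library.

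Oas1a lies next to Oas1g and carries the same ISRE core in the window printed above, and reads that fit both genes equally were not counted, so the split between them is uncertain. Oas1a was between 11.2 and 13.9 CPM in vehicle and between 5.68 and 9.79 CPM at 30 µg/kg, without overlap, and was not called (log2 change -0.77, edgeR adjusted p = 0.0921). The changes at 30 µg/kg were -0.88 for Oas2 and -0.57 for Oas3, the long-form synthetase, with edgeR adjusted p-values of 0.259 and 0.14. The catalytically different Oasl1, which restrains Irf7 translation, and Oasl2 stood at log2 changes of 0.03 and -0.29, and their groups overlapped at all 3 doses. At 10 µg/kg, all libraries of Oas1g, Oas2 and Oas3 also lay below vehicle.

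Ifi44, an interferon-induced protein of the cytoplasm (GRCm38 chr3:151730922-151749960), showed the largest change of the list at 30 µg/kg. It was at 9.24, 11.5 and 12.4 CPM in vehicle, 7.92, 11.4 and 17.1 CPM at 3 µg/kg and 10.0, 8.12 and 9.30 CPM at 10 µg/kg. At 30 µg/kg it was at 5.92, 2.75 and 2.08 CPM, below every library of the other groups. The difference from vehicle was 3.03-fold (log2 change -1.60, SE 0.34, edgeR adjusted p = 0.0171), and the adjusted p was between 0.00285 and 0.068 with each library left out. Ifi44 was called in 8 of these 12 fits, and in 2 of the 6 without a vehicle or 30 µg/kg library. Over dose rank it missed the threshold (log2 change over the range -1.48, edgeR adjusted p = 0.063).

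Cmpk2, a mitochondrial nucleotide kinase encoded beside Rsad2, differed among doses with little spread. Its vehicle libraries were at 61.1, 57.4 and 57.1 CPM and its libraries at 30 µg/kg at 41.0, 42.2 and 42.9 CPM. The libraries were at 61.4, 56.4 and 73.4 CPM at 3 µg/kg and at 50.7, 58.0 and 54.6 CPM at 10 µg/kg. All 3 libraries at 30 µg/kg were below the other 9, yet the size of the change stayed under 1.5-fold (1.39-fold lower, log2 change -0.48, SE 0.10, edgeR adjusted p = 0.0144).

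Trim30a, a tripartite-motif protein that dampens Toll-like receptor signalling, fell over dose rank (log2 change over the range -0.99, edgeR adjusted p = 0.042). It was at 26.03, 32.7 and 37.2 CPM in vehicle, 28.7, 24.3 and 46.6 CPM at 3 µg/kg, 26.7, 17.6 and 19.7 CPM at 10 µg/kg and 22.9, 15.8 and 13.2 CPM at 30 µg/kg. Vehicle and 30 µg/kg did not overlap (log2 change -0.88, edgeR adjusted p = 0.0682). Over dose rank, 35 of the 39 genes had a change below 0 (52.5% of all genes), and 17 were lower at an unadjusted p under 0.05 (9% of all genes). In that test, 2 of 39 were called lower, Trim30a and Oas1g (0.752% of all genes), 0 were called higher (2.53%), and neither of the pair was called after leaving out vehicle replicate 2 or 3 or 30 µg/kg replicate 2 or 3. Trim30a also lost its call, and Oas1g kept it, without 3 µg/kg replicate 1 or 2 or 10 µg/kg replicate 2 or 3.

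**Figure D3:**
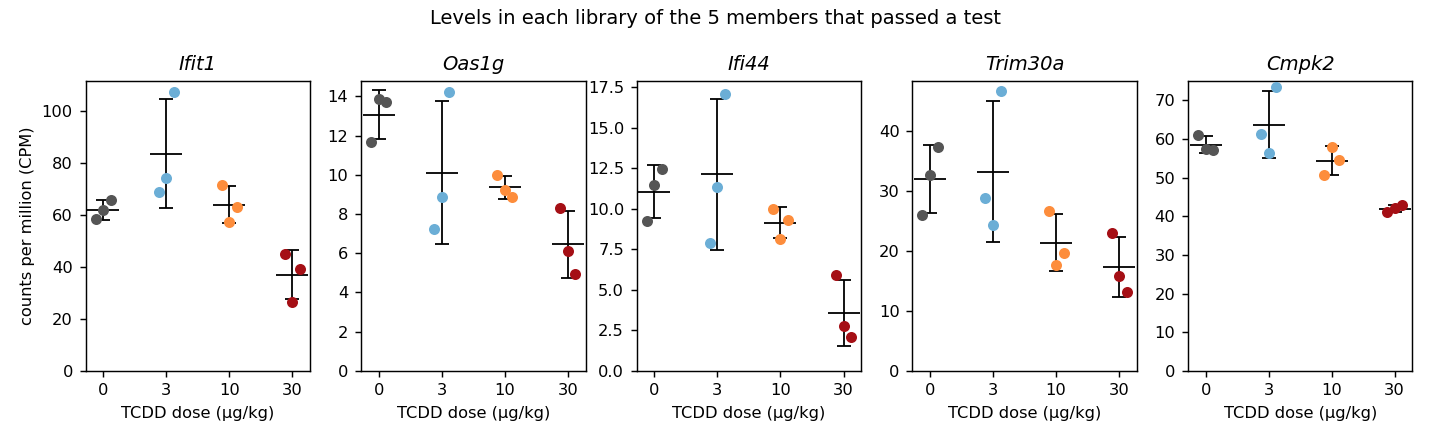
CPM of Ifit1, Oas1g, Ifi44, Trim30a and Cmpk2 in each of the 12 libraries by TCDD dose; points are libraries, horizontal bars the mean and whiskers ± 1 SD of 3. In all 5 panels the red points (30 µg/kg) lie below every grey point (vehicle), and the highest point at 3 µg/kg is replicate 3 in each.

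Among the remaining antiviral effectors, Mx2 and Ifi27 came close to a call at 30 µg/kg. Mx2, a dynamin-like GTPase annotated as a polymorphic pseudogene in the mouse, was at 6.37, 7.81 and 4.57 CPM in vehicle, 2.94, 5.13 and 7.86 CPM at 3 µg/kg, 7.19, 6.23 and 5.32 CPM at 10 µg/kg and 3.11, 2.57 and 2.90 CPM at 30 µg/kg. Vehicle and 30 µg/kg did not overlap (2.17-fold, log2 change -1.12, edgeR adjusted p = 0.051). Mx1, its neighbour, which is defective in most inbred strains, overlapped at every dose (log2 change at 30 µg/kg -0.13, edgeR adjusted p = 0.804).

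Ifi27, a small mitochondrial membrane protein, lay below vehicle in every library of every dose, a pattern shared in the list with Irf9. Its libraries were at 19.4, 19.2 and 21.0 CPM in vehicle, 16.9, 14.3 and 15.4 CPM at 3 µg/kg, 15.03, 15.7 and 18.6 CPM at 10 µg/kg and 12.5, 16.4 and 13.4 CPM at 30 µg/kg. The change at 30 µg/kg passed the adjusted p but not the fold (1.42-fold lower, log2 change -0.50, SE 0.13, edgeR adjusted p = 0.0362).

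Rsad2, whose product viperin makes a chain-terminating nucleotide, was above vehicle at 10 µg/kg and overlapped it at 3 and 30 µg/kg, without a call at any dose. It was at 16.9, 15.3 and 16.6 CPM in vehicle, 12.3, 27.5 and 44.3 CPM at 3 µg/kg, 23.1, 23.6 and 27.6 CPM at 10 µg/kg and 9.13, 8.26 and 15.4 CPM at 30 µg/kg. All 3 libraries at 10 µg/kg were above vehicle, and the range at 30 µg/kg overlapped vehicle by 1 library. The log2 changes were 0.79, 0.61 and -0.56 at 3, 10 and 30 µg/kg (edgeR adjusted p = 0.411, 0.399 and 0.385). Leaving out 3 µg/kg replicate 1 made Rsad2 the single call at that dose. Replicates 2 and 3, which remained there, both had a negative clock score. With the score added to the fit of all libraries, the log2 changes were 0.53, 0.38 and -0.61 (edgeR adjusted p = 0.447, 0.519 and 0.172).

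The other effectors were Bst2 (tetherin), Rtp4, Xaf1 and Ifi35. Their log2 changes at 30 µg/kg were -0.38 for Bst2, -0.40 for Rtp4, -0.38 for Xaf1 and 0.02 for Ifi35, with edgeR adjusted p-values from 0.198 (Xaf1) to 0.933 (Ifi35). Rtp4 was between 22.6 and 22.9 CPM in vehicle and between 14.0 and 19.99 CPM at 30 µg/kg, without overlap.

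None of the cytosolic RNA sensors was called at any dose. Ifih1 (MDA5), which recognizes long double-stranded RNA, was at 143, 132 and 129 CPM in vehicle, 164, 158 and 189 CPM at 3 µg/kg, 166, 170.3 and 175 CPM at 10 µg/kg and 160.0, 118 and 126 CPM at 30 µg/kg. Its libraries at 3 and 10 µg/kg lay wholly above vehicle, and those at 30 µg/kg overlapped it. The log2 change was 0.34 at both lower doses (edgeR adjusted p = 0.302 and 0.19). Ddx58 (RIG-I) stayed between 85.1 and 115 CPM in all 12 libraries. Dhx58 (LGP2), at 7.55 to 11.6 CPM in vehicle, was 3.82 to 8.16 CPM at 30 µg/kg (log2 change -0.72, edgeR adjusted p = 0.131).

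At 30 µg/kg the pair of the ISG15 system stood nearer 0 than the median of the list, as did Ifih1, Oasl1, Ifi35 and Gbp2 among others. Isg15, the ubiquitin-like modifier, was between 25.7 and 30.3 CPM in vehicle and between 22.0 and 42.3 CPM at 30 µg/kg, with the highest log2 change of the 39 at that dose (0.21, edgeR adjusted p = 0.709). Usp18, the protease that removes ISG15 and restrains the type I receptor, was between 20.3 and 28.8 CPM in vehicle. At 10 µg/kg Usp18 was above that range (29.2 to 34.8 CPM), without a call (log2 change 0.34, edgeR adjusted p = 0.42). At 30 µg/kg it overlapped vehicle (log2 change -0.06, edgeR adjusted p = 0.896).

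None of the 3 genes for transcription factors was called. At 30 µg/kg the log2 changes were -0.41 for Irf7, the amplifier of interferon transcription, -0.24 for Irf9 and -0.32 for Stat2, with edgeR adjusted p-values of 0.104, 0.249 and 0.123. For all 3 genes the libraries at 30 µg/kg lay wholly below vehicle, at 74.4 to 106 against 109.9 to 121 CPM for Irf7 (12.5% of all genes did not overlap in this way).

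The immunity-related GTPases and guanylate-binding proteins, which act on the vacuoles of intracellular pathogens, gave no call in a contrast with vehicle. All 6 had log2 changes above 0 at 3 µg/kg (median 0.63) and at 10 µg/kg (median 0.37), and 5 of 6 below 0 at 30 µg/kg (median -0.35). Igtp was at 69.5, 54.4 and 40.1 CPM in vehicle, 53.4, 108 and 154 CPM at 3 µg/kg, 48.0, 144 and 115 CPM at 10 µg/kg and 36.6, 17.9 and 45.4 CPM at 30 µg/kg. The groups overlapped at each dose, with wide spread within each. The log2 changes were 0.95, 0.90 and -0.70 (edgeR adjusted p = 0.441, 0.334 and 0.386). Igtp also varied with the clock score, which was negative in 2 of 3 libraries at 3 and at 10 µg/kg and in 1 of 3 in vehicle and at 30 µg/kg. With the score in the fit, its log2 changes were 0.55, 0.41 and -0.73 (edgeR adjusted p = 0.402, 0.468 and 0.0848), and the medians of the 6 genes were 0.50, 0.27 and -0.35.

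Irgm1 was at 26.5, 34.7 and 27.2 CPM in vehicle, 26.2, 32.7 and 56.7 CPM at 3 µg/kg, 30.3, 38.9 and 33.3 CPM at 10 µg/kg and 25.8, 14.0 and 17.5 CPM at 30 µg/kg. Its libraries at 30 µg/kg lay below vehicle (log2 change -0.62, edgeR adjusted p = 0.204). Gbp7 was at 15.5, 16.1 and 16.9 CPM in vehicle, 18.8, 20.1 and 34.9 CPM at 3 µg/kg, 16.5, 31.4 and 22.3 CPM at 10 µg/kg and 15.9, 11.4 and 14.3 CPM at 30 µg/kg. Gbp7 lay wholly above vehicle at 3 µg/kg (log2 change 0.61, edgeR adjusted p = 0.394). Gbp2, Gbp3 and Iigp1 overlapped vehicle at all 3 doses, with changes at 30 µg/kg of 0.21, -0.03 and -0.48 on the log2 scale.

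Counted over the list, 15 of the 39 genes had all libraries at 30 µg/kg below all vehicle libraries (12.5% of all genes did) and none had all above (14.2%). The 15 were Ifit1, Ifit3, Oas1a, Oas1g, Oas2, Mx2, Cmpk2, Rtp4, Trim30a, Ifi27, Ifi44, Irf7, Irf9, Stat2 and Irgm1. At 10 µg/kg, 8 were wholly below (11% of all genes) and 3 wholly above (11.9%), the latter being Ifih1, Rsad2 and Usp18. At 3 µg/kg, Ifi27 and Irf9 were wholly below (6.84% of all genes) and Ifih1, Ifit1 and Gbp7 wholly above (8.58%).

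**Figure D4:**
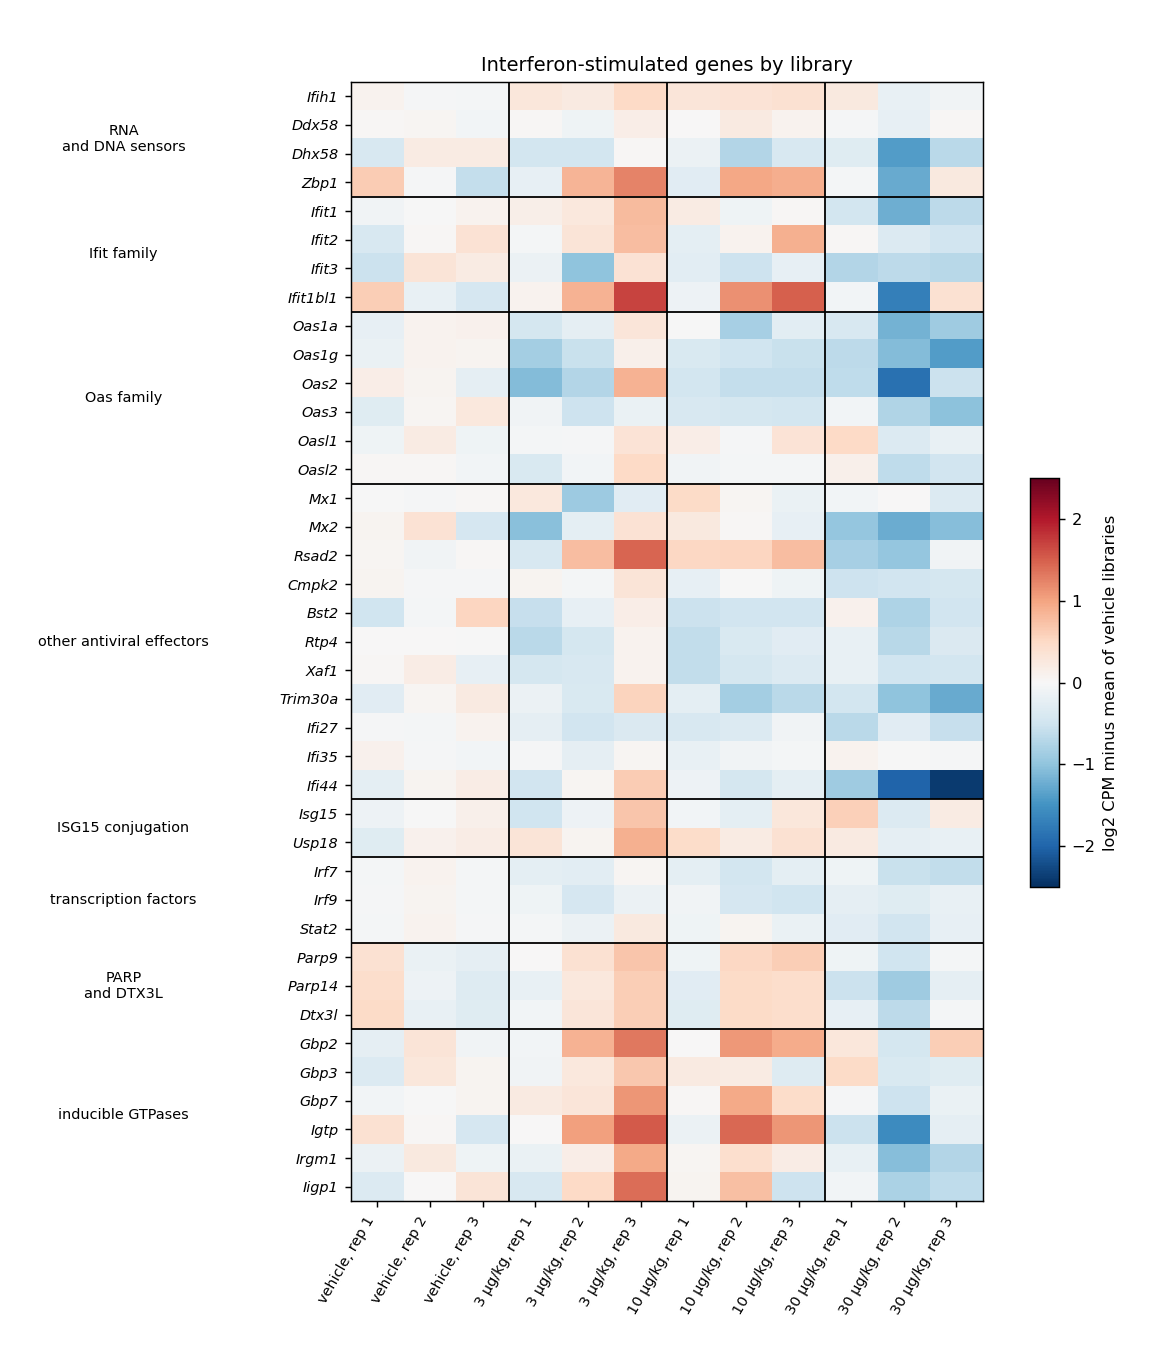
Log2 CPM of each gene minus its mean in the vehicle libraries, for the 12 libraries (columns) and 39 genes (rows, grouped by role); red is above and blue below vehicle. The column of 3 µg/kg replicate 3 is the highest for 27 genes and that of 30 µg/kg replicate 2 the lowest for 24.

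Single libraries stood at the ends of the range for many of the genes. The third library of 3 µg/kg was the highest of the 12 for 27 of the 39 genes (8.01% of all genes), with a summed level of 3367 CPM over the list, and the second library of 30 µg/kg, the shallowest, was the lowest for 24 (12.2% of all genes), at 1424 CPM. Vehicle libraries summed to between 2049 and 2515 CPM. Without 3 µg/kg replicate 3, the median at 3 µg/kg was -0.11 in place of 0.09, and 24 of 39 genes were below 0. Without 30 µg/kg replicate 2, the median at 30 µg/kg was -0.28, and 30 of 39 genes were below 0. The third library of 3 µg/kg belongs to the group with Fabp6 present, and the part of that in its levels was not tested.

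The step from 10 to 30 µg/kg was examined directly, with no vehicle library in the contrast. Of the 39 genes, 33 were lower at 30 than at 10 µg/kg (48.5% of all genes), with a median log2 change of -0.37 against 0.01 over all genes. Ifit1 was the single call (log2 change -0.78, edgeR adjusted p = 0.0386), and 0.607% of all genes were called lower. Igtp (-1.61), Ifi44 (-1.32), Rsad2 (-1.17) and Mx2 (-1.11) differed by more than Ifit1 on the log2 scale with larger adjusted p-values, from 0.0508 to 0.0793 by edgeR. The call of Ifit1 was lost without vehicle replicate 2 or 3, 3 µg/kg replicate 2, 10 µg/kg replicate 2 or 3 or 30 µg/kg replicate 2 or 3, while 5 genes were called without 3 µg/kg replicate 1 or 3 and 2 without 30 µg/kg replicate 1. From 3 to 10 µg/kg, 0 of 39 genes were called by edgeR, DESeq2 or limma-voom (0.158% of all genes by edgeR), with 2 lower at an unadjusted p under 0.05 (1.38% of all genes) and 34 below 0 (54%).

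A test for any difference among the 4 groups called Ifit1 (edgeR adjusted p = 0.015), Cmpk2 (0.0131) and Ifi44 (0.0313), 3 of the 39 against 6.78% of all genes. None was called without 30 µg/kg replicate 3, 1 without 30 µg/kg replicate 2, and 8 without 3 µg/kg replicate 1.

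Within doses, a subset of the genes varied with the clock score, a relation examined after the data were seen. With the score added to the fit of dose groups, 6 of 39 genes were lower in libraries of higher score at an edgeR adjusted p under 0.05 (4.77% of all genes) and 0 were higher (6.14%). The 6 were Zbp1, Ifit1bl1, Igtp, Parp9, Parp14 and Dtx3l. The libraries form 2 separate clusters of score, so the slope is in effect a difference between them, and times of collection are not given in the sources used here. The same 6 genes passed under 2 other scalings, a stricter filter and the removal of length and GC trends, and 5 or more of them passed with any library left out.

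Parp9 and Dtx3l are transcribed in opposite directions from neighbouring starts and their products form a complex, and Parp14, a mono-ADP-ribosyltransferase, lies in the same cluster on chromosome 16. Parp14 was at 502, 338 and 296 CPM in vehicle, 325, 443 and 562 CPM at 3 µg/kg, 302, 517 and 501 CPM at 10 µg/kg and 256, 200 and 318 CPM at 30 µg/kg. In each group the libraries with a negative score (vehicle replicate 1, replicates 2 and 3 of 3 and 10 µg/kg, and 30 µg/kg replicate 3) were the higher ones. The level fell by 0.14 log2 units per unit of score (SE 0.02, edgeR adjusted p = 0.000224). Dtx3l fell by 0.14 and Parp9 by 0.12 log2 units per unit (adjusted p = 0.000446 and 0.000828 by edgeR). The annotated Parp9 and Dtx3l genes overlap on opposite strands, as do Dhx58, Oasl1, Ifi35, Usp18, Irf7 and Gbp2 with other annotated genes. Whether counting used strand is not given in the sources used here. On the same strand, Igtp, Parp14, Irf9, Gbp7 and Rtp4 each overlap another annotated gene, which is Irgm2 for Igtp. Counting by strand would not separate these, and the part of the overlaps in the levels was not tested.

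Zbp1, a sensor of Z-form nucleic acids that can trigger necroptosis, had the next steepest slope after Ifit1bl1. It was at 91.6, 57.7 and 39.0 CPM in vehicle, 51.0, 107 and 140.0 CPM at 3 µg/kg, 48.4, 115 and 110.2 CPM at 10 µg/kg and 57.4, 24.8 and 70.4 CPM at 30 µg/kg. The level fell by 0.23 log2 units per unit of score for Zbp1, by 0.26 for Ifit1bl1 and by 0.22 for Igtp, with edgeR adjusted p-values of 0.0026, 0.0066 and 0.00562. Rsad2 shared the ordering of libraries in all 4 groups, which made 7 of 39 genes (6.78% of all genes), without passing the test (edgeR adjusted p = 0.114).

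**Figure D5:**
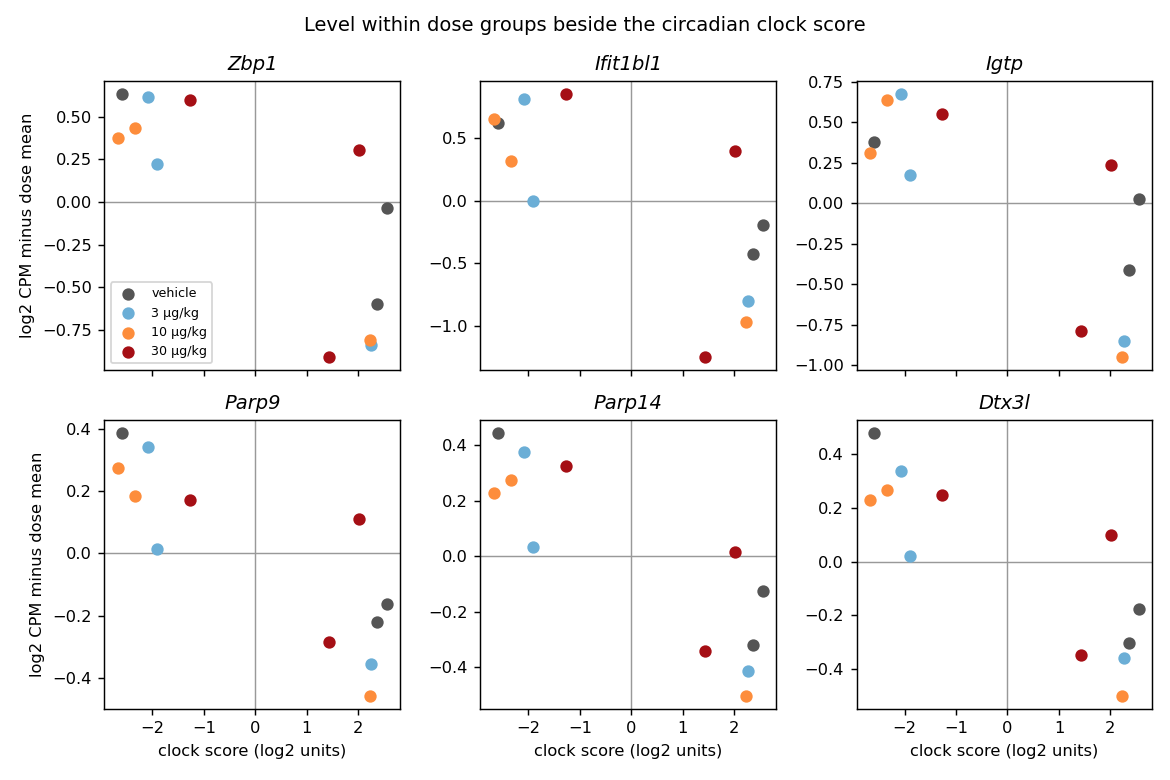
Log2 CPM minus the mean of its own dose group against the clock score for Zbp1, Ifit1bl1, Igtp, Parp9, Parp14 and Dtx3l; each point is a library, coloured by dose. Points with a score below 0 lie higher than those of the same colour above 0 in every panel.

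All 3 genes called at 30 µg/kg were called with this score in the fit. With it as a covariate, 5 of 39 genes were called lower at 30 µg/kg by edgeR (1.58% of all genes) and 0 higher (3.96%), the added calls being Mx2 (adjusted p = 0.0271) and Trim30a (adjusted p = 0.0242). The log2 changes of Ifit1, Oas1g and Ifi44 in that fit were -0.73, -1.01 and -1.59.

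Upstream of the list, the interferon genes themselves were hardly detected. Ifnb1, every interferon alpha gene examined and Ifnl3 had 0 counted reads in all 12 libraries. For uniquely aligned reads this allows a level of up to 0.139 to 0.266 CPM per library (3 reads, counting error only). Reads not aligned uniquely were left out, so for near-identical genes of these families the bound does not cover the reads they share. Ifnl2 had 1 read in all and Ifng at most 4 in a library. The receptor genes were expressed throughout and 0 of 6 were called at any dose by edgeR. Of all genes, 0.228% were called at 3 µg/kg, 0.613% at 10 µg/kg, and 3.08% higher and 0.891% lower at 30 µg/kg. At 30 µg/kg the log2 changes of the receptor genes were -0.12 for Ifnar1, -0.31 for Ifnar2, -0.43 for Ifnlr1, -0.09 for Il10rb, 0.16 for Ifngr1 and 0.02 for Ifngr2. At 3, 10 and 30 µg/kg, 1 of the 6 was lower at an unadjusted p under 0.05 (4.89%, 7.88% and 10% of all genes). With 6 genes, these counts do not set the receptors apart from all genes. Irf1, induced through the GAS, overlapped at every dose (log2 change at 30 µg/kg -0.13, edgeR adjusted p = 0.772).

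Of 76 further interferon-responsive genes tested, 2 were called lower (0.891% of all genes) and 1 higher (3.08%) at 30 µg/kg, 49 had changes below 0 (52.2% of all genes) and the median log2 change was -0.15. Both genes called lower are close relatives of list members: Oas1b (log2 change -1.19, edgeR adjusted p = 0.0424) and Ifit1bl2 (-0.67, adjusted p = 0.0465). Ifitm2, an endosomal restriction factor, was the one called higher, from 5.58, 6.80 and 5.88 CPM in vehicle to 16.8, 15.5 and 13.4 CPM at 30 µg/kg (log2 change 1.32, edgeR adjusted p = 0.00546). At an unadjusted p under 0.05 by edgeR, 7 of the 76 were higher and 22 lower (11.6% and 10% of all genes). Among 8 inhibitors of the pathway, Tiparp, an AhR target that also restrains interferon signalling, rose from 36.6, 38.2 and 41.4 CPM to 101, 110.3 and 92.5 CPM (log2 change 1.38, edgeR adjusted p = 0.000106), and no other was called. Slfn5 was called lower in the trend (log2 change over the range -0.97, edgeR adjusted p = 0.0464), as was Oas1b, while Sp100, Trim30d, Trim34a and Ifi30 passed the test for any difference without a call at 30 µg/kg.

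Markers of several other cell types also differed between vehicle and 30 µg/kg, and some of these differed at lower doses as well. The summed level of 5 Paneth cell markers was 506 to 788 CPM in vehicle and 1661 to 2319 CPM at 30 µg/kg, with 4 of the 5 called higher by edgeR (3.08% of all genes). That of 7 T and intraepithelial lymphocyte markers was 203 to 228 CPM and 273 to 319 CPM, with 2 of 7 called higher (Cd3g and Gzmb). The granzymes Gzma and Gzmb, at 126 to 157 and 63.1 to 85.4 CPM at 30 µg/kg, made up most of that sum. The log2 changes of Cd3d, Trdc, Cd8a, Cd3e and Gzma were -0.06, 0.06, 0.21, 0.29 and 0.49, without a call. Of 5 goblet cell markers, 2 were called higher. B and plasma cell markers summed to 107 to 302 CPM in vehicle and 105 to 126 CPM at 30 µg/kg, with 6 of 6 log2 changes below 0 (52.2% of all genes), a median of -1.93, 5 of 6 at an unadjusted p under 0.05 (10% of all genes) and none called by edgeR. Of 3 pancreatic acinar markers tested, 2 were called lower (0.891% of all genes), and the 5 of that list summed to 6.98 to 8.97 CPM in vehicle and 2.70 to 3.50 CPM at 30 µg/kg. Macrophage markers summed to 48.3 to 61.0 and 74.8 to 81.1 CPM, with 0 of 6 tested called and 1 of 6 below 0 (Adgre1, log2 change -0.10). Dendritic cell markers summed to 15.2 to 21.0 and 12.7 to 15.5 CPM, with 0 of 5 tested called and 1 of 5 above 0 (Clec9a, 0.20). Enterocyte markers overlapped, at 36480 to 45970 and 36640 to 48190 CPM. Neutrophil markers were near 0, at most 1.29 CPM summed, with S100a8 at 0 in all 12 libraries. At 10 µg/kg the lymphocyte markers summed to 269 to 340 CPM and the dendritic cell markers to 9.54 to 13.5 CPM. Their differences from vehicle were thus not particular to 30 µg/kg. At 3 µg/kg the acinar markers summed to 2.11 to 3.225 CPM, and 2 of 3 were called lower there too (0.228% of all genes in either direction). Paneth and macrophage markers, at 814 to 1143 and 35.4 to 56.8 CPM at 10 µg/kg, were highest at 30 µg/kg. The part of these cells in the lower levels of the interferon-stimulated genes was not tested.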

How the data were processed

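Whole-number read counts per Ensembl gene were deposited by the authors for 12 libraries of mouse ileal epithelium. The submitters' processing notes name FastQC 0.11.3, Trimmomatic 0.33, TopHat2 2.1.0, SAMtools 1.2.0, HTSeq 0.6.1 and DESeq, with build GRCm38. The annotation release and the strand setting are not given in the sources used here, and reads not aligned uniquely were left out, so members of near-identical families are uncertain. Rows naming no gene held 60.3 to 64.6% of reads and were dropped. Symbols were taken from GENCODE M21 (45143 of 46078 identifiers matched). Genes were filtered with filterByExpr, scaled by TMM and fitted in 1 model of 4 groups with the quasi-likelihood test of edgeR 4.0.16 (R 4.3.3). Adjusted p-values cover all 15823 genes, and calls need at least 1.5-fold. Trends used dose rank from 0 to 3. The fit was tested on simulated data. DESeq2 1.42.0 and limma 3.58.1, other scalings, filters and covariates, and each library left out were alternatives. Replicates were numbered in accession order. The members and gene lists were chosen with earlier results of these data known. All members are named, and values in each library are given for those passing a test and those next by p in the test of any difference, to 12; the genes following the clock score were named after their values were seen. One gene of the pathway lists is not reported here.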

Additional observations from a re-analysis of the deposited data

How the results depend on the processing

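No paired analysis was possible because the labels give the groups no shared replicate numbers. The count at 30 µg/kg (3 genes) was 6 with no filter on low counts, 6 by DESeq2, 5 with the clock score as covariate and 5 with length and GC trends removed, and between 0 and 6 with each library left out. The count at 3 µg/kg (0) was between 0 and 1 with each library left out, and those at 10 µg/kg and from 3 to 10 µg/kg were 0 under every alternative run. From 10 to 30 µg/kg (1), it was 8 with no filter, 8 by DESeq2, 3 with the compared groups alone, 5 with the clock score, 0 with length and GC trends removed, and between 0 and 5 with each library left out. In the trend (2), it was 4 by DESeq2, 0 with the sequencing index of each library as covariate, and between 0 and 3 with each library left out. For any difference (3), it was 10 with no filter, 12 by DESeq2, 7 with the clock score, and between 0 and 8 with each library left out. With the clock score, the calls at 30 µg/kg over all genes also rose, to 1.58% lower and 3.96% higher (0.891% and 3.08% without it). For the other alternatives, each library left out included, the share of all genes called is not given here. A larger count under them is therefore not a stronger result about the list. The cause of these differences was not tested. The count following the clock score in either direction (6) was 9 with no filter and between 5 and 8 with each library left out. The log2 change at 30 µg/kg reversed in sign for Ifih1 (0.0038 with the compared groups alone, 0.0016 with the clock score, 0.091 with length and GC trends removed), Oasl1 (-0.0041 by limma-voom, -0.0421 with length and GC trends removed), Ifi35 (-0.0865) and Isg15 (-0.0079), the last pair with length and GC trends removed. With each library left out, the range included 0 for Ifih1 (-0.1425 to 0.0856), Zbp1 (-0.5874 to 0.0808), Ifit1bl1 (-0.7143 to 0.1058), Oasl1 (-0.2686 to 0.187), Ifi35 (-0.0197 to 0.0702), Isg15 (-0.0336 to 0.4181), Usp18 (-0.2232 to 0.0344), Gbp2 (-0.0312 to 0.4328), Gbp3 (-0.3689 to 0.1266), Il10rb (-0.2444 to 0.0371), Ifngr2 (-0.0233 to 0.1088) and Irf1 (-0.2406 to 0.1144). None of these genes was called. With 3 libraries a group, the standard errors of the log2 change at 30 µg/kg reached 0.53 (Ifit1bl1), which limits what can be called.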
